A study of Mus musculus with 4 samples.

Results

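The Nrf2 antioxidant genes were 10 of the 13834 genes in the count table and were taken by name: Nfe2l2, which encodes the transcription factor Nrf2, its inhibitor Keap1, and the antioxidant genes Nqo1, Gclc, Gclm, Txnrd1, Srxn1, Slc7a11, Gsr and Prdx1. RNA-seq was performed on peritoneal macrophages from 2 Dnmt1fl/fl and 2 Dnmt1KO mouse samples. Both genotypes carried floxed alleles of Dnmt1, the enzyme that copies DNA methylation onto the new strand after replication. In Dnmt1KO mice a Cre driven by the myeloid LysM promoter removes the floxed part of the gene, and the labels call the Dnmt1fl/fl samples wild type. All mice were 10 weeks old and received thioglycolate 3 days before the peritoneal cells were collected, and no further stimulus is given in the labels. Cells were recovered by lavage and placed in culture, with no sort by surface marker described. LysM-driven Cre is also active in neutrophils. Nothing states whether a sample was 1 mouse or a pool, so p-values measure only the spread between these samples, which may be technical. All 10 genes had a row, were above 0 in all 4 samples and passed the filter on low counts that 12542 genes passed.

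Nrf2 is a basic leucine zipper factor that pairs with small Maf proteins on antioxidant response elements. In resting cells Keap1 holds it in the cytoplasm and hands it to a cullin ubiquitin ligase for degradation. Oxidants and electrophiles modify cysteines of Keap1, and newly made Nrf2 then reaches the nucleus. Much of this control acts on the protein, so mRNA of Nfe2l2 need not follow Nrf2 activity. Its targets make glutathione, reduce oxidised thiols and detoxify quinones, and in macrophages Nrf2 is known for limiting oxidative injury and inflammatory cytokine expression.

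The antioxidant response element that Nrf2 binds contains TGACNNNGC, and this element was looked for around the transcription starts because it is the sequence through which Nrf2 acts on its targets. RefSeq promoters on GRCm38.p6, from 250 bases before to 50 bases after each start, were matched for 8 of the 10 genes, and Txnrd1 had 3 of them, which made 10 promoters. On either strand TGACNNNGC was found in 5 of these 10 promoters, each of a different gene, against 12.4% of all 32851 RefSeq promoters of the same length. The related TGACTCA, which AP-1 factors also bind and which overlaps TGACNNNGC where GC follows it, was found in 2 of the 10 promoters, against 5.20% of all promoters. The joint form TGACTCAGC was found in 1, that of Prdx1, against 0.454%. The 4 windows below hold a match before any annotated exon. Each is written 5′ to 3′ on the gene's strand and stops where annotated exons begin, and capitals mark TGACNNNGC or its reverse complement. The windows are Nfe2l2 (chr2:75704664-75704913, minus strand), Gclm (chr3:122245307-122245556, plus strand), Prdx1 (chr4:116685349-116685543, plus strand) and the second start of Txnrd1 (chr10:82858956-82859178, plus strand), which lies inside the annotated span of Txnrd1.
Nfe2l2: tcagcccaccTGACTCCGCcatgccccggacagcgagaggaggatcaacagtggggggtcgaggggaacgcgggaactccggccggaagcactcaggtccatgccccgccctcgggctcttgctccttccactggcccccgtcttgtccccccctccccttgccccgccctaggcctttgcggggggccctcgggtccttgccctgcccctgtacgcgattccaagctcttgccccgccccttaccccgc
Gclm: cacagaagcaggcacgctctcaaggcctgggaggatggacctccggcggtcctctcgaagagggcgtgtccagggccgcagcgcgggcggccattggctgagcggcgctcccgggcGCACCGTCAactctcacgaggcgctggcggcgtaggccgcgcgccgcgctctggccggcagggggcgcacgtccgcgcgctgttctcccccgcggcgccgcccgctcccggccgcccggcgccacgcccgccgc
Prdx1: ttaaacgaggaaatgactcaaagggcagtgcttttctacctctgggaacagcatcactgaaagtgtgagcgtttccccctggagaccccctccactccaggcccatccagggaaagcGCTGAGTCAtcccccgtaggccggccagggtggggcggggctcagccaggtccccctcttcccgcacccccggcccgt
Txnrd1: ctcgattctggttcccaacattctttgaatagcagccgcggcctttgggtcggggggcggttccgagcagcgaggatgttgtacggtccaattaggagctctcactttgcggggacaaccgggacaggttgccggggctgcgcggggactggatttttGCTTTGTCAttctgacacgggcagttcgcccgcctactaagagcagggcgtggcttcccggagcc
In Srxn1 the match lay 28 bases after the start and is not printed, while TGACTCA occurred at 102 and 45 bases before it. A match describes these letters only, and sequence outside these windows was not searched. The genes were picked as known Nrf2 pathway genes, so the shares above are not a test of Nrf2 binding. GC content also differed between the promoters, from 44.7% in Slc7a11 to 79.7% in Gclm, against a median of 52.7% over all promoters. CpG sites, the dinucleotides on which Dnmt1 keeps methylation, numbered 48 in the Gclm promoter, more than in 98.8% of all promoters, 26 in Srxn1, 19 in Prdx1, 18 in Nfe2l2 and 13 in Keap1. The 3 promoters of Txnrd1 held 3, 27 and 12, the printed window belonging to that with 27. The promoters of Nqo1 and Slc7a11 held 5 and 4, and these and the first of Txnrd1 were below the median of 7 over all promoters. DNA methylation was not measured in these samples.

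The samples held between 20228071 and 24198943 counts in all, which put the value of 3 counts at 0.120 to 0.151 CPM, the unit of counts scaled to library size used throughout. Dnmt1 itself was 86.6 and 67.0 CPM in the Dnmt1fl/fl samples and 37.0 and 42.7 CPM in the Dnmt1KO samples. Its genotypes did not overlap, with a log2 fold change of -0.95 ± 0.24 (SE, n = 2 per genotype) and an adjusted p of 1.00 by edgeR's quasi-likelihood test. Macrophage markers were abundant in every sample, with Adgre1 at 700.4 to 986 CPM and Csf1r at 1011 to 1126 CPM. The 7 macrophage markers summed to 35270 and 34120 CPM in Dnmt1fl/fl and to 17450 and 21290 CPM in Dnmt1KO. Most of the sum was Lyz2, the gene into which LysM-Cre is inserted. Lyz2 was 29530 and 28590 CPM in Dnmt1fl/fl and 11350 and 15740 CPM in Dnmt1KO. It was the only marker of the 7 with both Dnmt1KO samples below both Dnmt1fl/fl samples. Of the 7, Dnmt1KO replicate 1 was the highest sample for 2 and the lowest for 4. Dnmt1KO replicate 1 stood apart from the rest. All 7 neutrophil markers with a row, of 9, were highest there, summing to 594 CPM against 35.5 to 124.5 CPM in the other samples. All 5 B cell markers were lowest there, at 128 CPM against 309 to 508 CPM, and so were all 4 markers of resident large peritoneal macrophages, at 128 CPM against 301 to 341 CPM. All 3 dendritic cell markers were also lowest there, at 15.9 CPM against 27.3 to 35.6 CPM, and all 4 mesothelial markers highest, at 7.73 CPM against 3.01 to 5.10 CPM. Summed markers of T cells were 15.3 to 21.9 CPM, of mast cells 6.36 to 10.3 CPM, of eosinophils 7.68 to 14.1 CPM (3 of 5 with a row), and of red cells 0.0797 to 0.847 CPM (1 of 4 with a row). Camp, Ngp, Epx and Prg2 had no row. The part of these cells in the values that follow was not tested.

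The first question was whether loss of Dnmt1 went with a change in the Nrf2 genes of these thioglycolate-elicited cells. None of the 10 genes passed the test: every adjusted p was 1.00 (edgeR's quasi-likelihood test with Benjamini-Hochberg adjustment), and 0 of the 10 were at an unadjusted p under 0.05. DESeq2 and limma-voom also placed 0 of the 10 past the adjusted threshold. Over all genes tested 0, or 0.0%, passed the adjusted threshold and 35, or 0.279%, the unadjusted one, while DESeq2 passed 1 gene and limma-voom 0. Taken by size alone, 6 genes were higher in Dnmt1KO by at least 0.2 on the log2 scale (Gsr, Nqo1, Prdx1, Keap1, Gclm and Srxn1), where 21.8% of all genes were. Only Gclc was lower by as much, where 19.7% were, and Nfe2l2, Txnrd1 and Slc7a11 lay between. The median of the 10 log2 fold changes was 0.23, against 0.0046 over all genes. With library totals in place of TMM scaling 2 were higher and 2 lower by that size, against 1696 and 3352 of all 12542 genes. With limma-voom 2 were higher and 2 lower, against 2328 and 2947 of the 12542. The median of the 10 was 0.12 with library totals and 0.0895 with limma-voom, against -0.0624 and -0.009 over all genes. The share of lower genes among all genes past 0.2 was 47.6% as reported, 66.4% with library totals and 55.9% with limma-voom. The Dnmt1KO pair differed more than the genotypes did for 9 of the 10 genes, as for 84.1% of all genes. For 9 of the 10 the difference between the genotype means was smaller than the pooled SD of the samples, as for 76.2% of all genes, Gclc being the exception. With 2 samples per genotype an exact permutation test of 1 gene cannot go below p = 0.333. Because the cells were measured in bulk, a smaller share of cells that express a gene and less RNA per cell cannot be told apart.

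**Figure D1:**
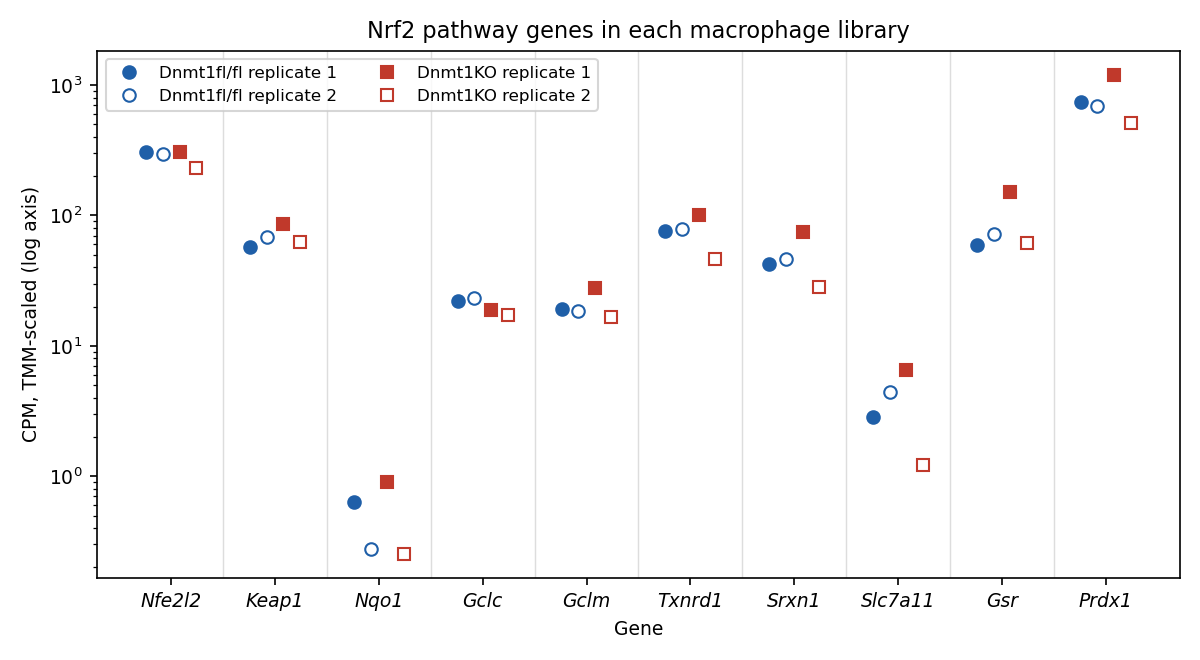
Expression of each of the 10 Nrf2 pathway genes in CPM (log axis), with a point for each of the 2 Dnmt1fl/fl and 2 Dnmt1KO samples. Dnmt1KO replicate 1 was the highest sample for 8 genes and Dnmt1KO replicate 2 was the lowest for 8, and only Gclc had genotypes that did not overlap.

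Nfe2l2 (chr2:75675513-75704641, minus strand, GRCm38) was 309 and 296 CPM in Dnmt1fl/fl and 307 and 230 CPM in Dnmt1KO. Both Dnmt1fl/fl samples and Dnmt1KO replicate 1 were nearly level and Dnmt1KO replicate 2 was lower. The means were 302 ± 8.75 and 269 ± 54.5 CPM (SD, n = 2), a log2 fold change of -0.17 ± 0.25 (SE) with a 95% interval of -0.79 to 0.44. Keap1 (chr9:21229730-21239361, minus strand) was 57.1 and 67.9 CPM in Dnmt1fl/fl and 86.0 and 62.6 CPM in Dnmt1KO. Its genotypes overlapped, Dnmt1KO replicate 1 alone lying above both Dnmt1fl/fl samples, and its log2 fold change was 0.25 ± 0.26 (SE). The 10.9% of exonic bases that Keap1 shares with the antisense Gm16754 leave its count uncertain, since the strand setting of the counting is not given in the sources used here. With Dnmt1KO replicate 1 left out, the fold changes were -0.40 for Nfe2l2 and 0.00099 for Keap1 on the log2 scale. Without Dnmt1KO replicate 2 they were 0.02 and 0.46. The regulator and its inhibitor therefore showed no difference larger than the spread between samples.

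Glutathione supply and recycling were represented by 4 genes. Slc7a11 (chr3:49892526-50443614, minus strand) encodes the transporter that brings cystine into the cell in exchange for glutamate. It was 2.83 and 4.43 CPM in Dnmt1fl/fl and 6.56 and 1.23 CPM in Dnmt1KO, so that both extremes were Dnmt1KO samples. Those values rest on 58, 111, 130 and 29 counts, and the exact Poisson intervals of the Dnmt1KO pair, 109 to 154 and 19.4 to 41.6 counts, did not meet. The intervals cover counting error only. Its log2 fold change was 0.09 ± 0.78 (SE), and it was -0.40 with limma-voom and -0.0426 with library totals. Without Dnmt1KO replicate 1 it was -1.56 and without Dnmt1KO replicate 2 it was 0.85, and no direction can be given for it.

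Gclc (chr9:77754535-77794485, plus strand), the catalytic subunit of glutamate-cysteine ligase, the rate-limiting step of glutathione synthesis, was 22.1 and 23.3 CPM in Dnmt1fl/fl and 19.0 and 17.4 CPM in Dnmt1KO. Both Dnmt1KO samples lay below both Dnmt1fl/fl samples, as for 8.56% of all genes. The means were 22.7 ± 0.823 and 18.2 ± 1.14 CPM (SD, n = 2), and the log2 fold change was -0.32 ± 0.22 (SE) with a 95% interval of -0.86 to 0.22. It was the only one of the 10 genes that stayed past 0.2 in the same direction when each sample was left out in turn, from -0.39 to -0.26. Its partner Gclm (chr3:122245557-122270732, plus strand), the modifier subunit of the same ligase, was 19.1 and 18.5 CPM in Dnmt1fl/fl and 27.9 and 16.8 CPM in Dnmt1KO. The Dnmt1KO samples of Gclm lay on either side of the Dnmt1fl/fl pair, and the log2 fold change was 0.25 ± 0.30 (SE). Per kilobase of exon the catalytic subunit was above the modifier in all 4 samples, at 4.61 to 6.18 against 2.67 to 4.43 CPM per kilobase. Exons of Gclm overlap Gm17494 on the opposite strand over 296 bases and the pseudogene Gm6061 over 244 bases.

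Gsr (chr8:33652523-33698163, plus strand), glutathione reductase, which returns oxidised glutathione to its reduced form with NADPH, had the largest fold change of the 10. It was 59.0 and 72.2 CPM in Dnmt1fl/fl and 152 and 61.1 CPM in Dnmt1KO. Only Dnmt1KO replicate 1 was high, and Dnmt1KO replicate 2 lay between the Dnmt1fl/fl samples. The means were 65.6 ± 9.37 and 107 ± 64.3 CPM (SD, n = 2) and the log2 fold change was 0.70 ± 0.45 (SE) with a 95% interval of -0.41 to 1.81. It was -0.10 without Dnmt1KO replicate 1. Without Dnmt1KO replicate 2 it was 1.21 with an adjusted p of 0.0085 by edgeR, a fit in which the lone Dnmt1KO sample is assumed to vary like the Dnmt1fl/fl samples and in which 1061 genes, or 8.32%, passed.

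The thioredoxin branch was represented by 3 genes. Prdx1 (chr4:116685544-116700822, plus strand), a peroxiredoxin that reduces hydrogen peroxide, was 741 and 687 CPM in Dnmt1fl/fl and 1198 and 512 CPM in Dnmt1KO. Txnrd1 (chr10:82833951-82897712, plus strand), the cytosolic thioredoxin reductase that keeps thioredoxin reduced, was 76.0 and 78.9 CPM in Dnmt1fl/fl and 101 and 46.2 CPM in Dnmt1KO. Srxn1 (chr2:152105516-152111376, plus strand), sulfiredoxin, which restores overoxidised peroxiredoxins, was 42.5 and 46.5 CPM in Dnmt1fl/fl and 74.5 and 28.1 CPM in Dnmt1KO. In all 3 genes the Dnmt1fl/fl samples lay close together, with Dnmt1KO replicate 1 above and Dnmt1KO replicate 2 below them. The log2 fold changes were 0.26 ± 0.43 for Prdx1, -0.07 ± 0.39 for Txnrd1 and 0.20 ± 0.46 for Srxn1 (SE). Without Dnmt1KO replicate 1 all 3 were below 0, at -0.48, -0.75 and -0.66, and without Dnmt1KO replicate 2 all 3 were above 0, at 0.75, 0.39 and 0.74. In that second fit, with its lone Dnmt1KO sample, Srxn1 had an adjusted p of 0.035 by edgeR, where 8.32% of all genes passed. In the opposite fit, with Dnmt1KO replicate 2 alone, Srxn1 was lower at an unadjusted p of 0.0074 and Txnrd1 at 0.0037, where 2.73% of all genes were under 0.05, and no gene passed after adjustment by edgeR.

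Nqo1 (chr8:107388225-107403206, minus strand), a quinone reductase often used as a readout of Nrf2, was scarcely detected. It had 13 and 7 counts in Dnmt1fl/fl and 18 and 6 counts in Dnmt1KO, or 0.633, 0.279, 0.909 and 0.254 CPM. The exact Poisson intervals were 6.92 to 22.2 and 2.81 to 14.4 counts in Dnmt1fl/fl and 10.7 to 28.4 and 2.20 to 13.1 counts in Dnmt1KO, and these intervals, which cover counting error only, overlapped between the genotypes. The log2 fold change of 0.34 ± 0.87 (SE) had a 95% interval of -1.82 to 2.51.

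**Figure D2:**
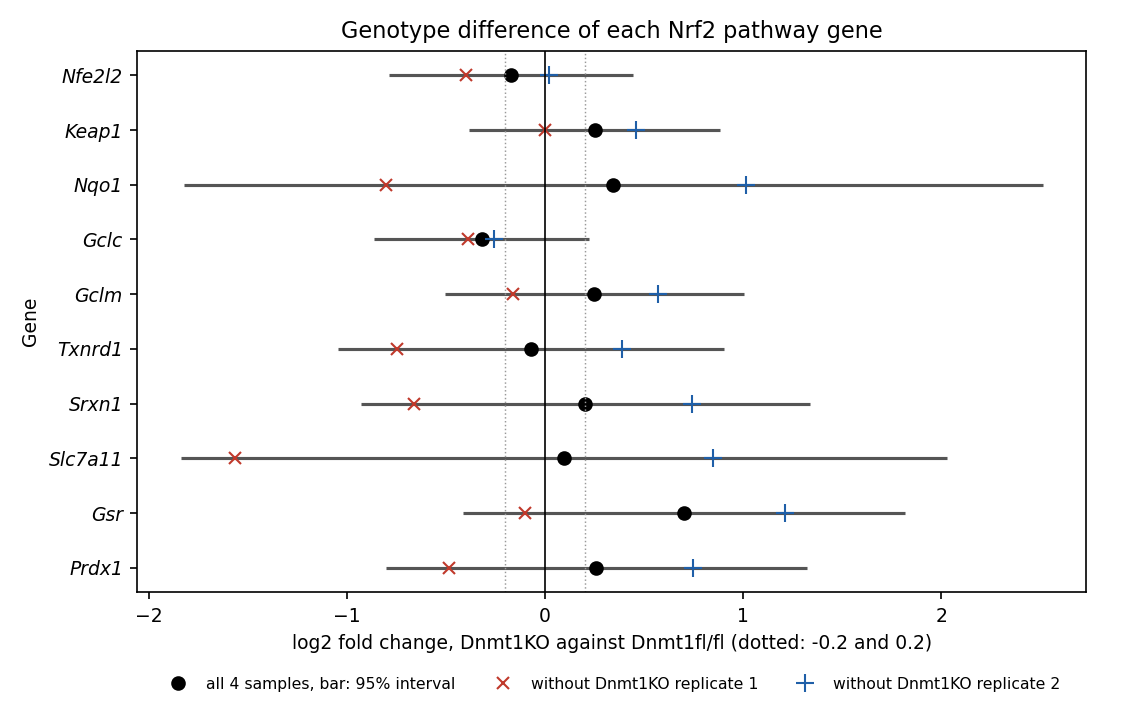
Log2 fold change of each gene, Dnmt1KO against Dnmt1fl/fl, with its 95% interval from all 4 samples (black) and the value without Dnmt1KO replicate 1 (red) or without Dnmt1KO replicate 2 (blue). Every interval includes 0, and the values without replicate 1 lie to the left of those without replicate 2 for all 10 genes.

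The spread of the 10 genes lay mainly between the Dnmt1KO samples. Dnmt1KO replicate 1 was above replicate 2 for 10 of 10 genes, as for 49.3% of all genes, and the difference exceeded that of the Dnmt1fl/fl pair for 10 of 10, as for 74.9% of all genes. In fold terms Dnmt1KO replicate 1 was 5.34 times replicate 2 for Slc7a11, 3.58 times for Nqo1, 2.65 times for Srxn1, 2.49 times for Gsr, 2.34 times for Prdx1 and 2.19 times for Txnrd1. It was 1.66 times for Gclm, 1.37 times for Keap1, 1.34 times for Nfe2l2 and 1.09 times for Gclc. Nfe2l2 and Keap1 were thus among the genes that differed least between the Dnmt1KO samples, together with Gclc. Dnmt1KO replicate 1 was the highest of the 4 samples for 8 genes, all but Nfe2l2 and Gclc, where 38.8% of all genes had it highest. Dnmt1KO replicate 2 was the lowest for 8 genes, all but Keap1 and Gsr, where 25.8% of all genes had it lowest. Left out in turn, the Dnmt1KO samples moved the median log2 fold change of the 10 genes to opposite signs. Without replicate 1 it was -0.44, with 0 genes higher and 7 lower by at least 0.2, against 20.9% and 21.2% of all genes. Without replicate 2 it was 0.66, with 8 genes higher and 1 lower, against 34.3% and 38.0% of all genes.

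Transcript length moved with the same pair of samples. Among all 12380 tested genes with a length, Dnmt1KO replicate 1 exceeded replicate 2 by a median of 0.46 on the log2 scale in the shortest of 5 groups of about equal size by longest transcript (95 to 1939 bases), and the median difference was -0.49 in the longest group (5222 to 123179 bases). The genotype difference ran the same way but less steeply, from 0.14 to -0.14. The Dnmt1fl/fl pair had a trend of its own, with a median of replicate 1 minus replicate 2 of -0.16 in the shortest group and 0.17 in the longest. Set against genes of like length, in 50 bins, all 10 Nrf2 genes remained above the median difference between the Dnmt1KO samples. The excess was 0.21 for Gclc, 0.32 for Nfe2l2 and 0.44 for Keap1, and it was 1.01 for Prdx1, 1.08 for Gclm, 1.11 for Txnrd1, 1.18 for Gsr, 1.27 for Nqo1 and Srxn1 and 3.06 for Slc7a11. The spread of genes within a length bin was not set beside these values, which are a description. The part of length and of the neutrophil markers, which were also highest in Dnmt1KO replicate 1, in the genotype values was not tested.

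**Figure D3:**
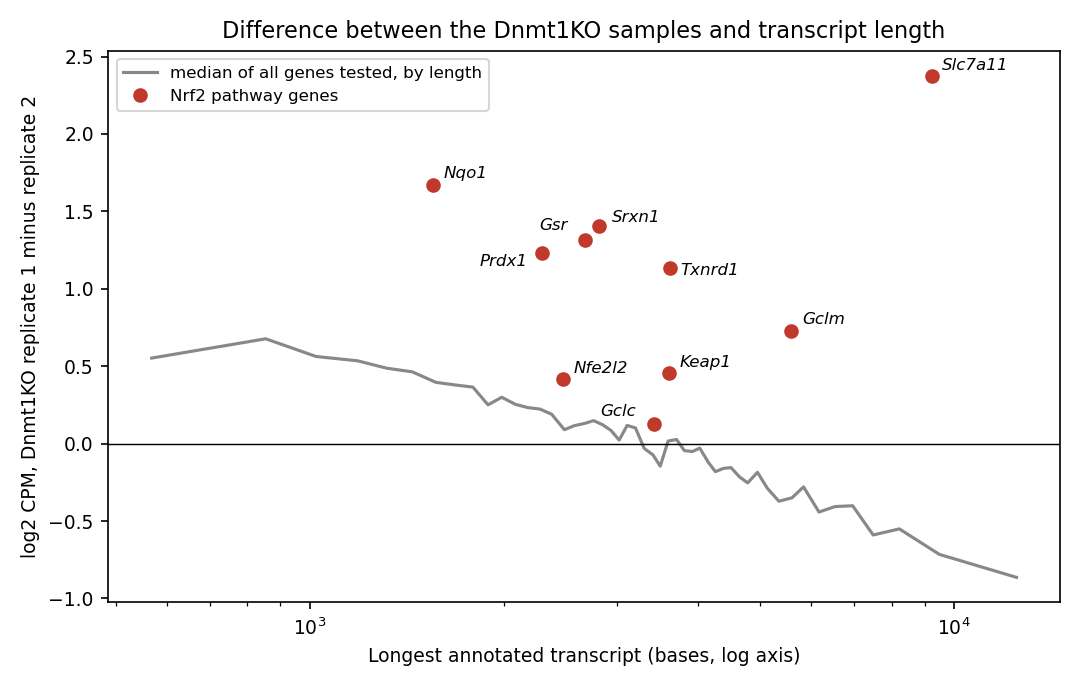
Difference between the Dnmt1KO samples (log2 CPM, replicate 1 minus replicate 2) against the length of the longest transcript in bases (log axis), for the 10 Nrf2 genes (labelled points) and the median of all genes in 50 length bins (line). All 10 genes lie above the line, Gclc nearest to it by 0.21 and Slc7a11 farthest by 3.06.

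Levels were compared between genes per kilobase of annotated exon, taken over all transcripts of a gene, so the order depends on the annotation. This length was 7086 bases for Txnrd1 and 13922 for Slc7a11, against 3622 and 9223 in their longest transcripts. Prdx1 had the highest level at 258 CPM per kilobase on average over the 4 samples (168 to 394), followed by Nfe2l2 at 75.2 (60.6 to 81.3). Gsr followed at 31.3 CPM per kilobase, Srxn1 at 17.0, Keap1 at 14.6 and Txnrd1 at 10.7, and the ranges of each neighbouring pair in this run overlapped. Gclc at 5.43 and Gclm at 3.27 CPM per kilobase were separate from each other and from Txnrd1. Nqo1 at 0.334 and Slc7a11 at 0.270 CPM per kilobase were the lowest and overlapped. Per length, mRNA of the peroxiredoxin and of Nrf2 itself thus stood above that of the other 8 genes in every sample, and mRNA of the quinone reductase and the cystine transporter stood below.

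The pattern of Nfe2l2 over the 4 samples was compared with those of 95 tested genes of the lists below, as the root mean square difference of log2 CPM centred on each gene's mean. The most similar were Glo1, a glyoxalase that detoxifies methylglyoxal with glutathione, at 0.090, Abcc1, an exporter of glutathione conjugates, at 0.10, and Gstt3, a glutathione transferase, at 0.11. Among the 10 genes themselves Nfe2l2 was nearest to Gclc, at 0.13. Keap1 was nearest to Gclm at 0.14, Srxn1 and Prdx1 were nearest to each other at 0.11, and Txnrd1 was nearest to Srxn1 at 0.15. Gsr and Nqo1 were nearest to Prdx1, at 0.26 and 0.37, and Slc7a11 to Srxn1 at 0.43. With 4 samples these distances are a description.

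Other genes of the pathway were taken in 4 lists, and 0 genes of any list passed the adjusted threshold or an unadjusted p under 0.05 by edgeR, DESeq2 or limma-voom. Of 20 partners and regulators of Nrf2, among them small Maf genes, Bach factors and parts of the cullin ligase, 4 were higher and 0 lower by at least 0.2, against 21.8% and 19.7% of all genes, and the median log2 fold change was 0.02. The highest were Nfe2l3, a relative of Nrf2, at 0.55 ± 0.70, and Rbx1, the RING subunit of the cullin ligase, at 0.35 ± 0.33 (SE), the first with Dnmt1KO replicate 2 as its lowest sample, at 0.551 CPM. The lowest were Palb2, a DNA repair protein that can bind Keap1, at -0.16 ± 0.52, and Bach2, a repressor that competes at Maf elements, at -0.15 ± 0.44 (SE). Dnmt1KO replicate 1 was the highest sample for 11 of the 20, against 38.8% of all genes. The genotypes of 2 did not overlap, with Dnmt1KO higher, against 8.14% of all genes. In this list the share of higher genes and the median lay near those of all genes.

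Of 35 other Nrf2 targets, 30 had a row and 28 passed the filter. Of these 21 were higher and 1 lower by at least 0.2, against 21.8% and 19.7% of all genes, with a median log2 fold change of 0.41, and the genotypes of 7 did not overlap with Dnmt1KO higher and of 2 with Dnmt1KO lower, against 8.14% and 8.56% of all genes. Without Dnmt1KO replicate 1 there were 5 higher and 5 lower, against 20.9% and 21.2% of all genes, and the median was -0.0083. Dnmt1KO replicate 1 was the highest sample for 23 of the 28, against 38.8% of all genes. The genes with the highest fold changes were Gstm2, a glutathione transferase, at 1.00 ± 0.55, and Osgin1, an oxidative stress induced growth inhibitor, at 0.90 ± 0.51 (SE). Gstm2 was 0.926 and 0.957 CPM in Dnmt1fl/fl and 2.53 and 1.27 CPM in Dnmt1KO, and Osgin1 2.68 and 2.91 against 7.42 and 3.05 CPM. For both, the genotypes did not overlap, though Dnmt1KO replicate 2 lay close to the Dnmt1fl/fl samples. The lowest were Marco, a scavenger receptor of macrophages, at -0.54 ± 0.24, and the exporter Abcc4 at -0.20 ± 0.28 (SE). Marco was 18.5 and 19.3 CPM in Dnmt1fl/fl and 12.1 and 13.9 CPM in Dnmt1KO, both Dnmt1KO samples being below both Dnmt1fl/fl samples. The heme oxygenase gene Hmox1, chosen after its values were seen, was 232 and 241 CPM in Dnmt1fl/fl and 462 and 229 CPM in Dnmt1KO, with the same high sample as Gsr. The ferritin chains Ftl1 and Fth1, chosen likewise, had log2 fold changes of 0.61 ± 0.41 and 0.59 ± 0.37 (SE), and Dnmt1KO replicate 1 was again the highest sample.

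The glutathione system was represented by 27 genes, of which 25 passed the filter, with 16 higher and 0 lower by at least 0.2 and a median log2 fold change of 0.26. Over all genes 21.8% were higher and 19.7% lower. Dnmt1KO replicate 1 was the highest sample for 19 of the 25, against 38.8% of all genes. Genotypes of 8 of the 25 did not overlap, all with Dnmt1KO higher, against 8.14% of all genes. When Dnmt1KO replicate 1 was left out, the count was 6 higher and 6 lower, against 20.9% and 21.2% of all genes, and the median -0.0485. The glutathione peroxidase relatives Gpx8 and Gpx7 were the highest, at 0.91 ± 1.10 and 0.75 ± 0.49 (SE), and Glo1 and Gstt3 were the lowest, at -0.02 ± 0.21 and -0.0052 ± 0.33 (SE). Gpx8 was 0.195 and 0.439 CPM in Dnmt1fl/fl and 1.11 and 0.127 CPM in Dnmt1KO, so that its place rests on Dnmt1KO replicate 1 and its lowest sample, Dnmt1KO replicate 2, is at the value of 3 counts. Of 22 thioredoxin, peroxiredoxin and superoxide enzymes, all tested, 12 were higher and 1 lower, again against 21.8% and 19.7%, with a median of 0.25. The genotypes of 2 of the 22 did not overlap, with Dnmt1KO higher, a share near the 8.14% of all genes. For 16 of the 22 Dnmt1KO replicate 1 was the highest sample, against 38.8% of all genes. Without Dnmt1KO replicate 1 there was 1 higher and 6 lower, against 20.9% and 21.2%, and the median was -0.0937. Sod3, the extracellular superoxide dismutase, was the highest at 1.02 ± 0.97, followed by Txn1, the cytosolic thioredoxin, at 0.74 ± 0.45 (SE). Sod3 was near the floor, at 0.292 and 0.439 CPM in Dnmt1fl/fl and 1.31 and 0.212 CPM in Dnmt1KO, and Dnmt1KO replicate 2 was the lowest sample. Txn1 was 274 and 321 CPM in Dnmt1fl/fl and 708 and 283 CPM in Dnmt1KO, so that only Dnmt1KO replicate 1 was high. The methionine sulfoxide reductase Msrb3 was the lowest at -0.37 ± 0.82, followed by Sesn1, a stress-induced sestrin, at -0.18 ± 0.24 (SE). The median longest transcript was 1957 bases in the other Nrf2 targets, 2254 in the glutathione system, 2586 in the thioredoxin list and 4294 in the partners and regulators, against 3361 over all genes. The lists that lay higher in Dnmt1KO had a median transcript shorter than that of all genes. So did the 10 Nrf2 genes, at 3117.5 bases with a median log2 fold change of 0.23. Over all genes the median genotype difference was 0.14 in the shortest of the 5 length groups. The part of length was not tested.

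**Figure D4:**
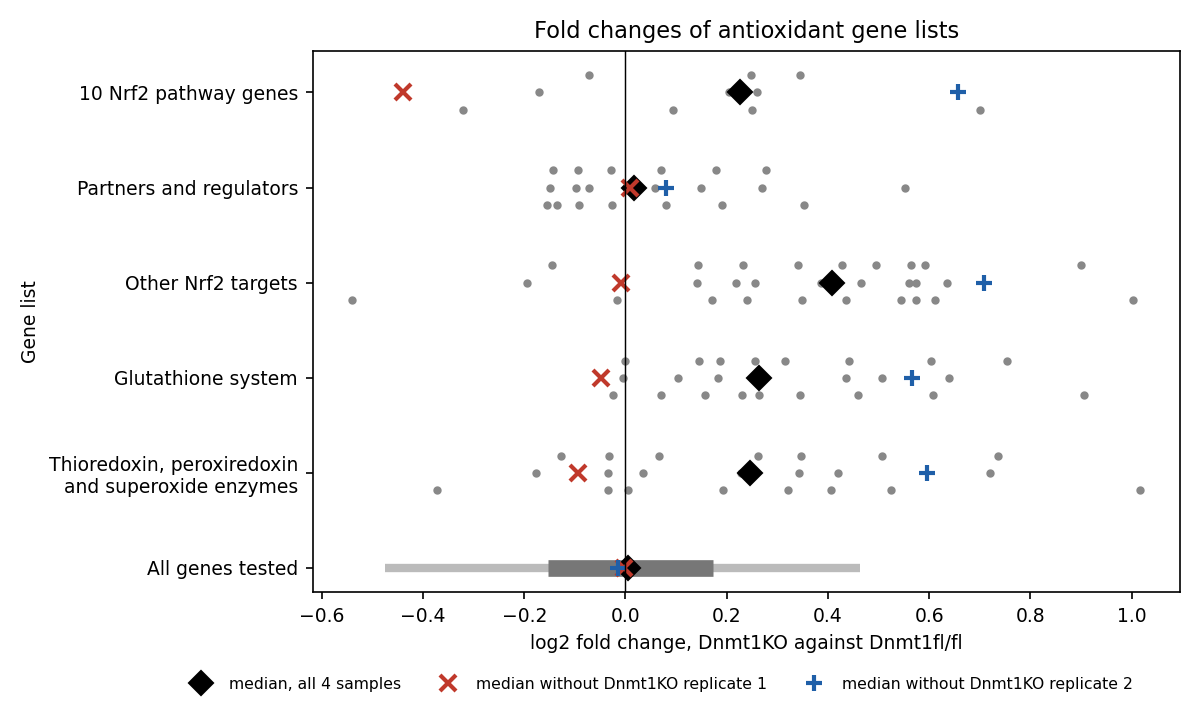
Log2 fold changes, Dnmt1KO against Dnmt1fl/fl, of the 10 Nrf2 pathway genes and 4 related lists (grey points, genes; symbols, medians with all 4 samples and without either Dnmt1KO sample), and of all genes tested (dark bar, 25th to 75th percentile; light bar, 5th to 95th). Without Dnmt1KO replicate 1 the medians of the 10 genes and of 3 lists lie below 0, at -0.44 and between -0.0937 and -0.0083.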

How the data were processed

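RNA-seq with paired-end reads of 150 bases was performed on total RNA of 2 Dnmt1fl/fl and 2 Dnmt1KO samples. The authors aligned reads with HISAT2 2.0.5 and counted them per gene with featureCounts 1.5.0-p3, on mm10 per the submitters' processing notes, and deposited estimated counts without normalization. Between 72.6% and 76.4% of values per sample were whole, and how reads were divided is not given in the sources used here. For 4 of the 10 genes (Gsr, Gclm, Keap1 and Slc7a11) some values were not whole. The table lists no gene at 0 in any sample. A shorter deposited table, the study's own selection, was not used.

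Counts were rounded, filtered with filterByExpr and scaled with TMM (factors 0.910 to 1.04) with edgeR 4.0.16 under R 4.3.3. The two-sided quasi-likelihood F-test set Dnmt1KO against Dnmt1fl/fl, adjusted by Benjamini-Hochberg over 12542 genes, at a threshold of 0.05. Replicates varied by 28.9% (common dispersion 0.0837). SEs and intervals came from the same fit, CPM means carry SDs, and distances between patterns used log2 CPM with a prior count of 1. Rows of 8 repeated symbols were kept apart. Scripts were tested on simulated data. The fit was repeated with limma-voom (limma 3.58.1), DESeq2 1.42.0, DESeq2's size factors (RLE) in edgeR, library totals, no filter, a filter of 10 counts in every sample, a replicate block, other limits, and leaving out each sample. The crossed pairing was added after seeing the data.

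Genotypes and replicate numbers came from the sample titles. Positions and lengths are from GENCODE M21 (GRCm38, which is mm10), and promoters from RefSeq on GRCm38.p6. The 10 genes and all lists were chosen with earlier results of these data known. All 10 genes are named, with the 2 highest and 2 lowest of each list, the 3 genes most like Nfe2l2, and Dnmt1. Hmox1, Ftl1, Fth1 and the marker genes lie outside this rule, and the first 3 of them were chosen after their values were seen.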

Additional observations from a re-analysis of the deposited data

How the results depend on the processing

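Genes past the adjusted threshold numbered 0, 1 with DESeq2, 0 with the replicate block, 35 at an unadjusted p, and 0 to 1061 with 1 sample left out, the highest count without Dnmt1KO replicate 2 and 0 without Dnmt1KO replicate 1. Genes past 0.2 on the log2 scale numbered 5206, 149 past a limit of 1, 5349 with the replicate block, and 5434 to 9229 with 1 sample left out. Of the 10 Nrf2 genes 7 were past 0.2, against 5206 of the 12542 genes tested. With limma-voom 4 of the 10 were, against 5275 of all genes. With library totals 4 were, against 5048, and with the replicate block 6, against 5349, each of the same 12542 genes. Their median was 0.23, 0.0895 with limma-voom, 0.12 with library totals, 0.0884 with the replicate block and 0.0903 with the crossed pairing.

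Whether same-numbered samples were handled together is not given in the labels. Deviations of same-numbered samples correlated at -0.348 across genes, which are not independent, so this value cannot settle it. With the crossed pairing 3 genes passed, none of them among the 10. Of 79 values of the 10 genes recomputed with all samples, 75 kept their direction and 4 reversed, all of Slc7a11: -0.40 with limma-voom, -0.0426 with library totals, -0.28 with the replicate block and -0.25 with the crossed pairing, against 0.09. Nqo1 was lost to the filter of 10 counts. The median of the partners and regulators reversed to -0.0486 with library totals. The cause of these changes was not tested.

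With 1 sample left out, the median of the 10 genes ran from -0.44 to 0.66, of the partners and regulators from 0.0089 to 0.0981, of the other targets from -0.0083 to 0.71, of the glutathione system from -0.0485 to 0.57 and of the thioredoxin list from -0.0937 to 0.60. Single genes ran from -0.40 to 0.0221 for Nfe2l2, -0.80 to 1.03 for Nqo1, -0.16 to 0.57 for Gclm, -0.75 to 0.39 for Txnrd1, -0.66 to 0.74 for Srxn1, -1.56 to 0.85 for Slc7a11, -0.10 to 1.21 for Gsr and -0.48 to 0.75 for Prdx1. Keap1, from 0.00099 to 0.46, and Gclc kept their sign. Nqo1 rests on 6 to 18 counts per sample, and 2 samples per genotype limit all 10 genes.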
